A study of Mus musculus with 4 samples.

Results

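The HoxB and HoxC gene clusters were examined for binding of TBX5 in the mouse forelimb bud. Peaks were taken from the authors' deposited list when their summit lay on chromosome 11 from 95800000 to 96500000 (the HoxB window, 700 kb) or on chromosome 15 from 102500000 to 103100000 (the HoxC window, 600 kb). The HoxB window held 13 peaks and the HoxC window 16, together 29 of the 11224 peaks listed. Inside these windows the gene clusters themselves were taken to span 96050000 to 96230000 and 102750000 to 102870000, approximate positions on mouse build mm9. HoxC carried 13 of its 16 peaks inside that span and HoxB 4 of its 13.

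The list comes from ChIP-seq, in which chromatin bound by a protein is pulled down with an antibody and its DNA sequenced. Forelimbs came from mouse embryos of the outbred ICR stock, wild type in genotype and at embryonic day 10.5, and the antibody was a polyclonal against TBX5. The 4 libraries comprised 2 replicates of the TBX5 ChIP and 2 of input chromatin from the same stage, strain and tissue, with no second genotype or treatment. How many embryos went into a library is not given in the sources used here, and whole forelimbs mix several cell types. The list gives 1 set of peaks for both ChIP replicates, so no value below has a replicate SD, and the read depth behind it is unknown.

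TBX5 is a T-box transcription factor required for the forelimb bud to form, and mutations in human TBX5 cause the heart and hand malformations of Holt-Oram syndrome. Hox genes encode homeodomain transcription factors that lie in clusters, and their order along the chromosome follows the order of their expression along the body axis. They also act upstream of Tbx5. Hox proteins of the anterior trunk, of the groups that Hoxb4 and Hoxb5 belong to, can activate the forelimb enhancer of Tbx5, and Hoxc8, Hoxc9 and Hoxc10 can repress it. Hoxb9 and Hoxc9 belong to a group needed for the posterior programme of the forelimb bud. Hoxc10 and Hoxc11 are typical of the hindlimb.

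All 10 genes of interest (Hoxb4, Hoxb5, Hoxb6, Hoxb7, Hoxb8 and Hoxb9, and Hoxc8, Hoxc9, Hoxc10 and Hoxc11) are in a RefSeq gene table of GRCm38.p6. By that table's gene order, HoxB runs from Hoxb13 at the lower coordinates through Hoxb9, Hoxb8, Hoxb7, Hoxb6, Hoxb5, Hoxb3 with Hoxb4, and Hoxb2 to Hoxb1 at the higher coordinates. HoxC runs in the same sense from Hoxc13, Hoxc12, Hoxc11, Hoxc10, Hoxc9 and Hoxc8 to Hoxc6, Hoxc5 and Hoxc4. Ttll6 and Skap1 are the protein-coding neighbours of HoxB on the lower and upper side, and Calcoco1 and Smug1 those of HoxC.

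Peaks were located within a cluster by position only, and none was assigned to a single gene, exon, intron or UTR. The labels name mm10 (GRCm38), but the listed summits of chromosome 7 span 147.4 Mb, longer than the 145.3 Mb at which the last GRCm38.p6 gene of that chromosome ends. Such an overrun past the end of the protein-coding genes was seen for 72 summits, on 5 chromosomes. Positions are therefore given as listed and read on mm9, a reading that is not settled by the labels. Read on GRCm38 instead, 2 summits would lie within the HoxC genes and 6 within the HoxB genes, so the counts inside the clusters depend on the build.

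Promoter sequence from RefSeq (GRCm38.p6) could be matched for 2 of the 10 genes, Hoxb4 and Hoxb8. The 250 bases before the start of each are shown, on the plus strand and 5′ to 3′, because they are the promoters of these genes that could be searched for the T-box letters. No peak is claimed to lie on either.
Hoxb4: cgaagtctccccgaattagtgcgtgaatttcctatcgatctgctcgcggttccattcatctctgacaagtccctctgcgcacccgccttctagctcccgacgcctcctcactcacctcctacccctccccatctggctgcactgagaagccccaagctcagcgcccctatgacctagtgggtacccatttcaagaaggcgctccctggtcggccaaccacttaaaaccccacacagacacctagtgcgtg
Hoxb8: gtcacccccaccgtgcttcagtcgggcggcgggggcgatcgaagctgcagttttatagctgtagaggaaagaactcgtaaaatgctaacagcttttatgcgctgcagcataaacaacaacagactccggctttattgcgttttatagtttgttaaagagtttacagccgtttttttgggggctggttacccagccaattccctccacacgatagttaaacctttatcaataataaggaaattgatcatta
A short stretch of the T-box motif, GGTGTG, is read on the other strand as CACACC. The 250 bases before and 50 after each start were searched for it. GGTGTG occurred in 0 of the 4 Hoxb and Hoxc promoters in that table, those of Hoxb1, Hoxb4, Hoxb8 and Hoxc4. It occurred in 19.05% of all 32851 promoters of that length. The longer form AGGTGTGA, which contains GGTGTG, was in none of the 4 and in 1.28% of all. Other short parts of the longer form, such as AGGTGT, were not counted. AGGTGT is present in the Hoxb4 stretch shown, on the other strand as ACACCT. Its share over all promoters was not determined, so nothing is read from this single hit. The absence of GGTGTG and AGGTGTGA from those windows says nothing of the sequence under the peaks, since no genome of the listed build was used here. In GC content the stretches differed, with 58.0% for Hoxb4 and 44.4% for Hoxb8 against a median of 52.4% over all promoters.

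Within HoxB, the 4 peaks of the span all lay toward the Hoxb1 end of the cluster. They lay 72.6%, 76.3%, 90.7% and 92.2% of the way along the span, counted from the Hoxb13 side. The part of the span below the first of them, 131 kb, held 0 listed peaks. That stretch belonged to a gap of 312 kb between neighbouring summits, 95868778 and 96180727. Of the 590 gaps on chromosome 11, 111 were longer, as were 19.4% of the gaps over the list. The median gap of the list was shorter, at 63.5 kb. The span edges are rounded to the nearest 10 kb, so the percentages are approximate.

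The strongest peak of the HoxB span had its summit at 96187419 on chromosome 11 (interval 96187317 to 96187511). Its deposited signal value, the strength given by the authors' peak caller on a scale that is not stated, was 77.1. That is 2.84 times the list median of 27.2 and ranks 637th of 11224. Its neighbour 6.69 kb lower, at 96180727 (96180645 to 96180819), had a signal of 56.4. Both were narrow, 195 and 175 bp, where 84.3% of all peaks had the common width of 416 bp. Peaks narrower than 200 bp made up 8.28% of the list, and their median signal was 57.6.

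The other pair of peaks in the HoxB span lay 2.71 kb apart, nearer to Hoxb1. The lower one, at 96213210 (96213002 to 96213417), had a signal of 43.0. The upper one, at 96215915 (96215707 to 96216122), had a signal of 18.5, below the lower quartile of the list (20.3). They also differed in reproducibility as the list records it. The deposited score restates the irreproducible discovery rate (IDR), a rate estimated from how well the ranks of peaks in both replicates go together, so that a low rate stands for reproducible peaks. It reaches its ceiling of 1000 at an IDR of 0.00391 or below and stands at 540 at the list's limit of 0.05. The upper peak had a score of 565, an IDR of 0.0436, while the other 3 peaks of the span stood at the ceiling.

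**Figure D1:**
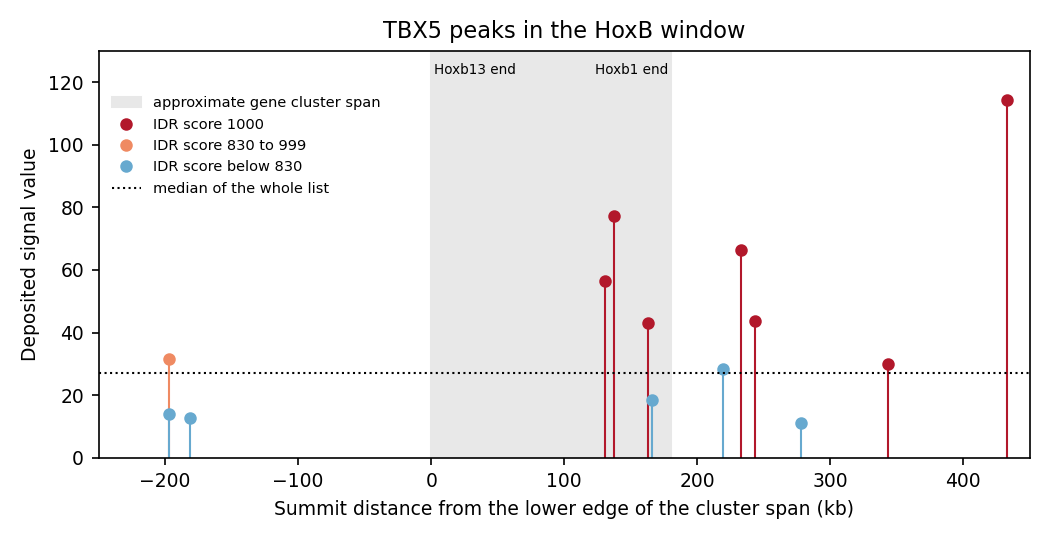
Signal value of each of the 13 peaks in the HoxB window against the distance of its summit from the lower edge of the cluster span (kb), with the span shaded, colours for the IDR score and a dotted line at the list median of 27.2. The 4 peaks inside the span sit at its Hoxb1 end, and the strongest peak of the window lies 433 kb from the span's lower edge, which is 253 kb beyond its upper edge.

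Outside the HoxB span, peaks were found mostly on the Hoxb1 side, where Skap1, an adaptor protein of T cells, is the next protein-coding gene by order. This upper flank held 6 peaks in 270 kb, or 22.2 per Mb, the same density as the 4 peaks in the 180 kb of the span. The lower flank, on the Hoxb13 side, held 3 peaks in 250 kb, or 12.0 per Mb, none of them at the score ceiling. No error from replicates can be attached to these densities, which rest on 3 to 6 peaks each.

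The strongest peak of the whole HoxB window lay in the upper flank at 96482592 (96482473 to 96482699), 253 kb above the upper edge of the span. Its signal was 114.3, rank 183 of the list, above all 4 peaks of the span. A further 2 peaks of the upper flank exceeded the list's upper quartile of 39.96, at 96283016 with a signal of 66.3 and at 96293379 with a signal of 43.8. The remaining 3 had signals of 11.1 (96327937), 28.5 (96269048) and 29.9 (96393326). The peak at 96269048 was less reproducible than peaks of like strength. Its score was 657, while the 501 peaks nearest to it in signal rank had a median of 964 and quartiles of 872 and 1000. In the lower flank, the signals were 31.5 (95852708), 14.0 (95852910) and 12.6 (95868778).

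HoxC showed another layout, with most of its peaks inside the span and few around it. The span held 13 peaks in 120 kb, or 108.3 per Mb, against 6.25 per Mb in the flanks (3 peaks in 480 kb). The peaks ran from 33.6% to 96.6% of the way along the span, counted from the Hoxc13 side. Below the first, 40.3 kb of the span held 0 listed peaks, on the Hoxc13 side. Which genes lie in that stretch was not determined. Above the last, 4.04 kb of the span was without a peak, on the Hoxc4 side.

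One strong peak stood above the rest of HoxC. Its summit was at 102845084 on chromosome 15 (102844953 to 102845206), 79.2% along the span, and its signal was 114.5, or 4.21 times the list median. It ranked 181st of 11224, close to the strongest HoxB peak at 183rd. At 254 bp it was the only peak of the HoxC window without the common width of 416 bp. The next strongest peaks of HoxC were at 102863359 (102863151 to 102863566) with a signal of 46.3 and at 102865761 (102865553 to 102865968) with a signal of 34.9, both near the Hoxc4 end. All 3 had the highest score.

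The other 10 peaks in the HoxC span had signals below the list median. The strongest of them, at 102840532, had a signal of 26.9 and a score of 822, 4.55 kb from the strong peak. The others comprised 4 close pairs of summits and the weaker partner of the peak at 102865761. In the flanks, a lone peak at 102582759 (signal 28.3, score 1000) lay 167 kb below the span, and a close pair lay 130 kb above it, on the Hoxc4 side.

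**Figure D2:**
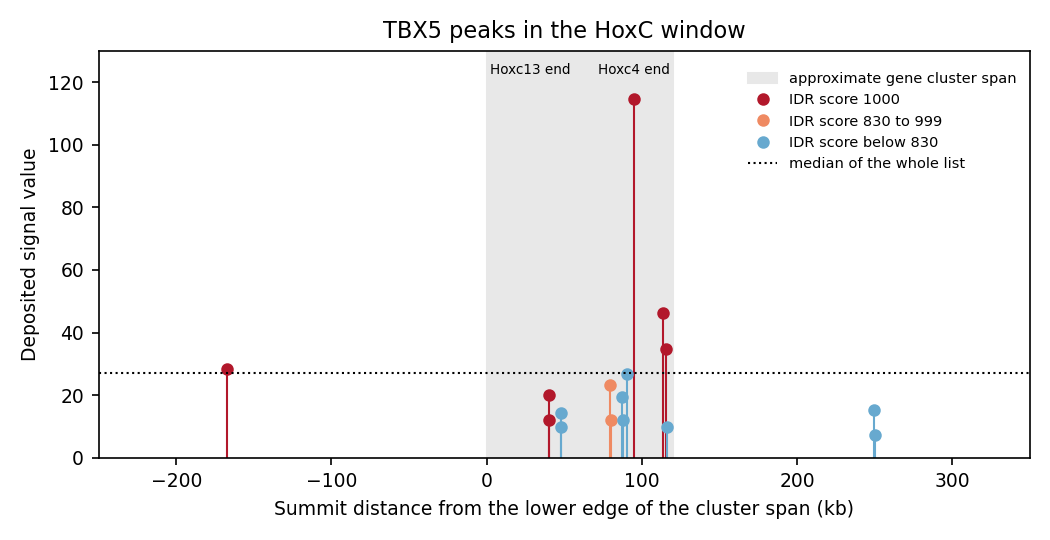
Signal value of each of the 16 peaks in the HoxC window against the distance of its summit from the lower edge of the cluster span (kb), drawn as for HoxB with the span shaded and the list median dotted. Of the 16, 13 lie inside the span, and the peak with a signal of 114.5 stands far above the next, at 46.3.

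Much of the HoxC count came from summits that lay very close together. Another summit within 500 bp was found for 12 of the 16 HoxC peaks (75.0%) and for 2 of the 13 HoxB peaks (15.4%), against 20.1% of all listed peaks. With summits within 1000 bp joined to 1 site, the HoxC window held 10 sites and the HoxB window 12. The HoxC span then held 8 sites and the HoxB span 4. Whether a close pair is 1 bound site listed with more than 1 summit or neighbouring sites was not tested.

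From the Hoxc13 side, the first close pair of HoxC lay at 102790269 and 102790481, with signals of 20.01 and 12.1. Both carried the highest score of 1000. For the stronger of them this was far above the scores of peaks of like strength, whose median was 650 with quartiles of 598 and 716 (501 peaks nearest in signal rank). The next pair, at 102797892 and 102798170, was the least reproducible of the window. Its signals were 14.2 and 9.90 and both scores were 550, an IDR of 0.0474.

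Further pairs lay toward the Hoxc4 end. At 102829797 and 102830038 the signals were 23.3 and 12.1, with scores of 925 and 836. At 102837322 and 102837593 they were 19.4 and 12.0, with scores of 568 and 586. Here the weaker summit had the higher score, the only pair of the 2 windows of which this was true. The last pair in the span joined the peak at 102865761 (signal 34.9, score 1000) to one at 102865961 (signal 9.69, score 822). Outside the span, the pair at 102999839 and 103000049 had signals of 15.4 and 7.30, the latter the lowest of all 29 peaks.

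**Figure D3:**
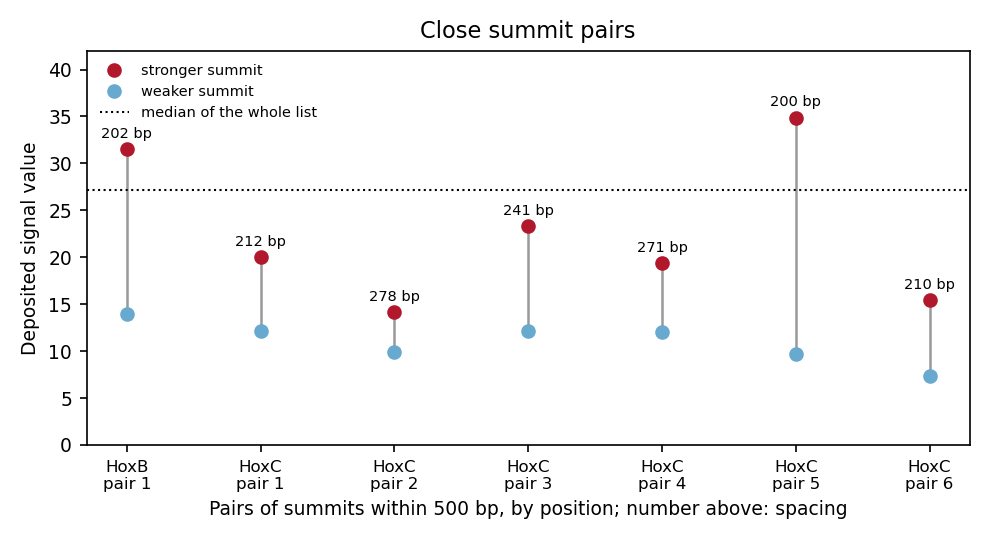
Signal values of the stronger and the weaker summit in each of the 7 pairs within 500 bp in the HoxB (1 pair) and HoxC (6 pairs) windows, in order of position, with the spacing in bp above each pair and the list median dotted. In the HoxC pairs the weaker summit lies between 7.30 and 12.1, below the median of 27.2 in each.

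The weaker summit of the 6 HoxC pairs had 0.278 to 0.699 times the signal of its partner, with a median of 0.563. The median over all 1151 neighbouring pairs within 500 bp in the list was 0.444. Spacings in HoxC ran from 200 to 278 bp, and the single HoxB pair, at 95852708 and 95852910, was spaced 202 bp with a ratio of 0.443. Over the 1151 pairs of the list the shortest spacing was 199 bp and the median 215 bp. The weaker partner was also where the peak caller's significance was low. A q-value above 0.05 was found for 3 of the 16 HoxC peaks, each the weaker of a pair, and for 0 of the 13 HoxB peaks, against 6.07% of the list. These were the summits at 102798170 (q = 0.103), 102865961 (q = 0.119) and 103000049 (q = 0.455).

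In strength the peaks of the 2 windows differed in their medians. The median signal was 31.5 over the 13 HoxB peaks and 17.4 over the 16 HoxC peaks, beside 27.2 for the list. With close summits joined and the stronger kept, the medians were 37.2 for 12 HoxB sites and 25.1 for 10 HoxC sites, beside 28.9 for all 9764 sites. Among peaks with an IDR of 0.01 or below they were 50.1 for HoxB and 25.8 for HoxC, a limit that leaves 8 peaks in each window. Signals overlapped widely, from 11.1 to 114.3 in HoxB and from 7.30 to 114.5 in HoxC. A signal above the list's upper quartile was found for 6 HoxB and 2 HoxC peaks, where 25% of the list is above it by construction. These differences were not tested, since the list has no replicate values and peaks are not replicates.

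Reproducibility was near that of the list in HoxB. An IDR of 0.01 or below was reached by 8 of the 13 HoxB peaks (61.5%) and by 8 of the 16 HoxC peaks (50.0%), where 60% of all listed peaks reached it. The highest score was held by 7 HoxB peaks (53.8%) and 6 HoxC peaks (37.5%), against 45.4% of the list. Shares of 13 or 16 peaks move by several percentage points with each peak, and neither cluster is set apart by these counts.

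**Figure D4:**
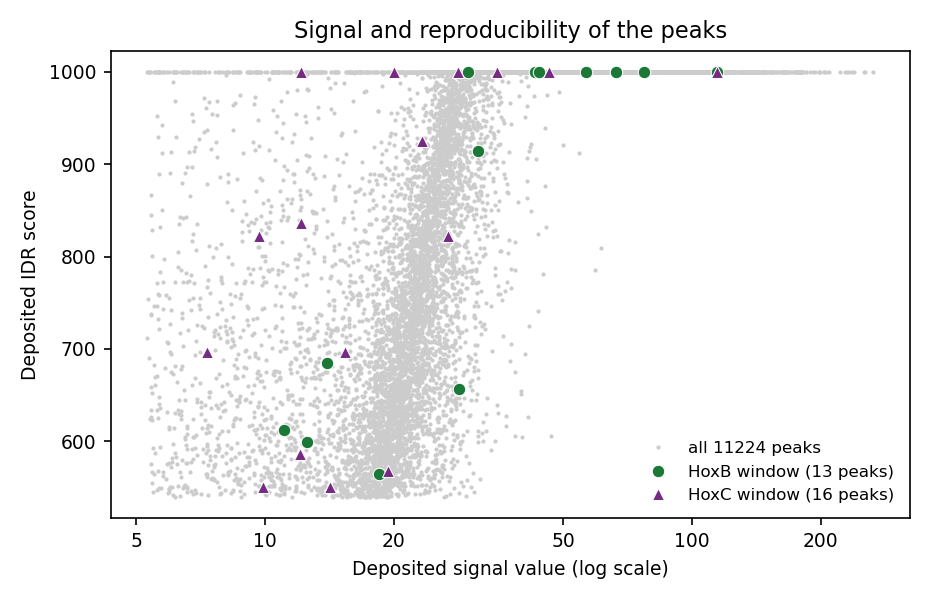
IDR score against signal value (log scale) for all 11224 listed peaks (grey), the 13 HoxB peaks (green circles) and the 16 HoxC peaks (purple triangles). HoxC peaks lie mostly at signals below the median of 27.2, and those between 7.30 and 20.01 range in score from 550 to 1000.

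Both windows were denser in peaks than most of the genome. HoxB held 18.6 peaks per Mb and HoxC 26.7, which are 4.0 and 5.74 times the 4.65 per Mb over the autosomes. The chromosomes themselves were near that value, with 5.003 per Mb on chromosome 11 and 3.98 on chromosome 15. Among 3742 consecutive windows of 700 kb over the chromosomes, 133 (3.55%) held at least 13 peaks, and the median held 2. Among 4364 windows of 600 kb, 58 (1.33%) held at least 16 peaks, and the median held 1. Counted as joined sites, the clusters were close to each other in density. HoxB held 17.1 sites per Mb and HoxC 16.7, 106 windows of 700 kb (2.83%) held at least the 12 sites of HoxB, and 147 of 600 kb (3.37%) held at least the 10 of HoxC.

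The HoxC span was the denser stretch at the scale of the cluster itself. Of 21866 consecutive windows of 120 kb, 2 held at least 13 peaks and 18 (0.0823%) held at least 8 joined sites. Of 14571 windows of 180 kb, the length of the HoxB span, 745 (5.11%) held at least 4 peaks.

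The other Hox clusters held more peaks in windows of 700 kb placed around their approximate mm9 positions. The HoxA window, chromosome 6 from 51800000 to 52500000, held 23 peaks, or 20 joined sites. The HoxD window, chromosome 2 from 74200000 to 74900000, held 35 peaks, or 32 joined sites, and included the strongest peak of the list with a signal of 266.0. HoxB, at 13 peaks in the same length, was the lowest of these 3, and HoxC held 16 in its shorter window. In median signal the order was not the same, with 33.1 in HoxA and 28.6 in HoxD, on either side of the 31.5 in HoxB and both above the 17.4 in HoxC. With close summits joined, HoxB at 37.2 was above HoxA at 33.5, HoxD at 29.8 and HoxC at 25.1. In HoxB, joining left out a single peak, of signal 14.0, so the rise from 31.5 rests on that peak. No test was made of these differences, for which the list has no replicate error.

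**Figure D5:**
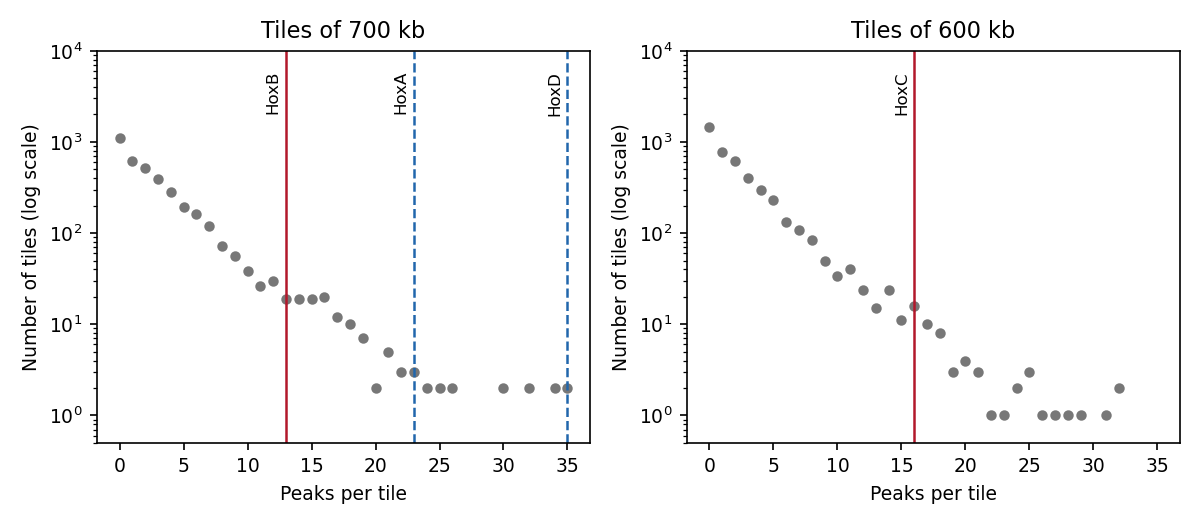
Number of consecutive genome windows (log scale) by the number of peaks each holds, for windows of 700 kb (left, with HoxB as a solid line and HoxA and HoxD as dashed lines) and of 600 kb (right, with HoxC as a solid line). HoxB lies at 13 peaks, HoxC at 16, HoxA at 23 and HoxD at 35, all in the sparse upper tail.

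Beyond the window edges, the nearest listed peaks were not evenly placed. A peak at 96503987 (signal 24.7, score 919) lay only 3.99 kb above the HoxB window, and the nearest below it was 226 kb away at 95573778 (signal 5.92, score 544). For HoxC, a strong peak at 103135882 (signal 137.0, score 1000) lay 35.9 kb above the window, stronger than any of the 29 peaks inside the windows. The nearest below was 136 kb away at 102364236 (signal 42.8, score 1000). These edges set which peaks were counted.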

How the data were processed

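TBX5 ChIP-seq was profiled in 2 ChIP and 2 input libraries of mouse forelimb. 1 peak list without a header, in the 10-column narrowPeak layout, was used. It holds the authors' deposited IDR score (whole-number part of -125 × log2 of the IDR, at most 1000), the deposited signal value of each peak and the deposited −log10 q-value. The aligner, peak caller, filters and pooling are not given in the sources used here, and FastQC is the tool named in the submitters' processing notes. Depth is therefore unknown.

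Starts and summits were converted to 1-based positions. Window and span membership was decided by the summit. Peaks per Mb of a chromosome used the distance between its outermost summits. Consecutive windows started at position 0, and the HoxA and HoxD windows were placed from general knowledge of mm9. The like-strength group of a peak was all peaks within 250 signal ranks. Counting, joining and neighbour search were tested on simulated data, where all 12 planted quantities were recovered. In the joining checks the site at the upper window edge was added to the count by rule. Joining was therefore tested only on the planted sites further inside the windows. Python 3.11.15, NumPy 2.4.6, pandas 2.3.3, SciPy 1.17.1 and matplotlib 3.10.9 were used.

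The genes, windows and named peaks (every peak of a span, its nearest neighbour outside, the 5 strongest of each window and the close pairs) were chosen with earlier results of these data known. Other peaks were named so that every member is accounted for. No statistical test was made. Alternatives were stricter IDR or q-value limits, joined peaks, the 50% of peaks with the higher signal, other window and span edges and another reference for density.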

Additional observations from a re-analysis of the deposited data

How the results depend on the processing

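Of 38 alternative values, 29 stayed within 1.5 times the main count or, for density ratios and medians, within a 95% binomial interval. For density ratios this interval covers counting error only. For medians it runs between ranked signals of the peaks in the window, so it is a spread over peaks and not replicate error. It was wide enough that the HoxB median of 50.1 at the stricter IDR counted as staying within it. The HoxB window count went from 13 to 8 at an IDR of 0.01 or below. The HoxC window count went from 16 to 8 at that limit, to 10 with overlapping or touching intervals joined, to 10 with summits within 1000 bp joined, and to 4 in the 50% of the list with the higher signal. The HoxB span count went from 4 to 2 with the span narrowed by 20 kb. With the list read on the labelled build it was 6, which counted as staying within 1.5 times, though the stretch counted is then not the same. The HoxC span count went from 13 to 7 at the stricter IDR, to 8 with joined summits and to 2 with the list read on the labelled build. The density ratio lay between 3.59 and 4.25 for HoxB and between 4.13 and 6.70 for HoxC under the 4 alternatives of each. The median signal of HoxB went from 31.5 to 50.1 at an IDR of 0.01 or below, and lay between 31.5 and 37.2 under the other 2 alternatives. For HoxC it went from 17.4 to between 19.4 and 25.8. The joined span counts and the labelled build were added after the data were seen. No paired analysis was possible because values per replicate are not part of the list, nor could a replicate be left out. Without read depth, absence of a listed peak does not show absence of binding.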

Other observations

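In all 7 close pairs of the 2 windows, the summit at the lower coordinate was the stronger. The same was true of 988 of the 1151 neighbouring pairs within 500 bp in the list (85.8%). The cause was not tested.

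Equal scores recurred within pairs. In 3 of the 6 HoxC pairs both summits carried the same score (1000, 550 and 697), as did 636 of the 1151 pairs in the list (55.3%). Leaving out pairs with both scores at the ceiling of 1000, the counts were 2 of 5 in HoxC and 347 of 862 in the list (40.3%). Why they are equal was not tested.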
